A study of Homo sapiens with 9 samples.

Results

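The DNA replication and S-phase genes are the 45 genes that load, open, copy and close the chromosomes in S phase, from the origin licensing factors to the polymerases, with the enzymes that make deoxynucleotides, the regulators of entry into S phase and the protein that binds histone mRNA. They were chosen by name: 47 symbols were looked up among the gene names of the array, and all 45 genes behind them were found, because CDC45 and ORC1 also have an older symbol that no probe carried. The array names 34623 genes and transcripts in 42405 probes, and 56 of these probes belong to the 45 genes.

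RNA came from NT2 cells, an established human embryonal carcinoma line that starts to turn into neuron-like cells in retinoic acid. All cultures were given 10 μM retinoic acid, and after 4 days they had been exposed to 1 μM paraoxon, to 5 μM mipafox or to neither. Paraoxon and mipafox are organophosphorus esterase inhibitors, of which mipafox also inhibits neuropathy target esterase. Each treatment had 3 one-colour arrays, lettered A, B and C. The sample labels call the letters biological replicates and the published methods call them technical ones, so the p-values may measure only technical spread.

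The 9 arrays lay on 2 slides. Slide 1 carried all 3 controls and mipafox A. Slide 2 carried all 3 paraoxon arrays and the other 2 of mipafox. Paraoxon and slide can therefore be separated only through the mipafox arrays, of which slide 1 held 1. With slide as a block, the mipafox value is thus mipafox A against the 3 controls. The E1A control spots, 350 per array, had an unscaled mean log2 signal of 9.29, 9.50 and 9.55 in control A, B and C. The mean was 8.19, 7.54 and 7.83 with paraoxon and 8.11, 7.80 and 7.54 with mipafox. Every exposed array was thus below the controls on these spots, on either slide. The part of this technical difference in the values below was not tested. The share of probes well above background ran from 65.7% to 73.6% per array, and no probe was saturated. All 10 embryonal carcinoma markers found on the array, POU5F1, SOX2 and NANOG among them, were well above background on all 9 arrays. Of 11 markers of other cell types, 7 were tested, and 6 were well above background on all 9 arrays as well. KRT5 and HBB, which mark basal epithelium and red cells, were well above background on none.

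DNA replication starts at origins where the origin recognition complex, CDC6 and CDT1 load a double ring of MCM2 to MCM7. Cyclin E with its kinase, and the kinase CDC7 with its partner DBF4, then turn the ring into a moving helicase with CDC45 and the GINS complex, and E2F factors switch on the genes for most of these proteins as cells leave G1. The mRNAs of replication-dependent histones are made in the same phase but carry no poly(A) tail. They end in a stem-loop bound by SLBP, and they are degraded when DNA synthesis stops. A loss of cells in S phase would therefore be looked for in the 2 groups together, and the question put to the arrays was whether lower histone signal went with lower signal of the replication genes.

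Promoter sequence was not used to choose the replication genes. RefSeq promoter windows, from 250 bases before the start site to 50 bases after it in GRCh38.p14, were at hand for 39 of the 45 genes. The 4 letter strings of the E2F type, TTTCCCGC, TTTGGCGC, TTTCGCGC and TTTGCCGC, were searched on both strands. At least 1 of them stood in 18 of the 39 windows, or 46.2%, against 3.31% of all 35116 windows in the table. The share was 35.3% among the further replication and S-phase genes and 27.3% among the replication-dependent histone genes that they are compared with. The string CCAAT was in 51.3% of the replication gene windows and in 34.6% of all windows. TTTGAA, the core of an element known from genes of the G2 and M phases, was in 5.13% and 15.2%. A match is a description of the letters, not a binding site. The windows of 6 of the replication genes whose match lies wholly before the start site are shown on the strand of the gene. The match is in capitals, and the 6 are examples from several roles, of which PCNA and RFC3 share that of clamp and loader. The 6 were picked from the matches, and the search fixed the letters in capitals, so their likeness is not a result. MCM6 is at chr2:135876506-135876545 on the minus strand, CDT1 at chr16:88803738-88803777 on the plus strand, GINS2 at chr16:85688962-85689001 on the minus strand, PCNA at chr20:5126658-5126697 on the minus strand, RFC3 at chr13:33818078-33818117 on the plus strand and TYMS at chr18:657598-657637 on the plus strand.
MCM6: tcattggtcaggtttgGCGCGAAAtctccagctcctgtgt
CDT1: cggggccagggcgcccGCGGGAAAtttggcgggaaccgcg
GINS2: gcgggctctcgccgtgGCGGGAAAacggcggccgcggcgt
PCNA: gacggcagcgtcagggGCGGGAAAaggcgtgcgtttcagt
RFC3: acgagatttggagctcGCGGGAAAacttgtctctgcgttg
TYMS: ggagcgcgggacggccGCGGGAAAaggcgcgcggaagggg

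Signal is given here as log2 of the processed spot signal minus the 75th percentile of its array, and a gene with several probes is represented by its brightest one. A value above 0 is therefore a signal above the 75th percentile of its array. All 45 replication genes had a brightest probe that was well above background on all 9 arrays, so none was lost to the filter on dim probes, and 55 of their 56 probes were tested. The probe left out was the dimmer one of CCNE2, well above background on 3 arrays.

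No replication gene passed the test with either compound. Of the 45 genes, 0 passed an adjusted p under 0.05 with a log2 fold change beyond 1 in limma with paraoxon, with mipafox or between the compounds, and the background share of all 29134 tested probes was 0% in each of these comparisons as well. At an unadjusted p under 0.05 with paraoxon, 2 of 45 genes were lower (DBF4 and POLD2) against 6.02% of all probes, and 0 were higher against 7.31%. With mipafox 1 gene was lower (DBF4) against 4.00%, and 0 were higher against 2.96%. Over all 55 tested probes of these genes, 4 were lower with paraoxon, or 7.27%, with the second probes of MCM7 and MCM5 besides those of DBF4 and POLD2, and 2 with mipafox, or 3.64%, from MCM7 and DBF4. Between the compounds 1 gene was lower with paraoxon (MCM2) against 1.15%, and 0 were higher against 2.87%. Both exposures were compared with the same 3 control arrays, and the compounds were given at different concentrations. In RNA of whole cultures, fewer cells in S phase and less of an RNA per cell cannot be told apart.

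The differences of the brightest probes were also small in size. The log2 fold changes of the 45 genes ran from -0.61 (POLD2) to 0.27 (POLD1) with paraoxon and from -0.36 (POLD2) to 0.32 (MCM2) with mipafox. The median was -0.05 with paraoxon, where 30 genes were below 0 and 15 above, against 48.1% of all tested probes below 0. With mipafox it was -0.02, where 23 were below and 22 above, against 49.8%. The median over all tested probes was 0.01 and 0.00. By its brightest probe, a log2 fold change beyond 0.5 in either direction was seen in 2 replication genes with paraoxon (POLD2 and POLE). With mipafox it was seen in 0. The shares of all probes, dimmer second probes included, were 15.9% and 9.23%. Second probes of the replication genes also went beyond 0.5. That of MCM7 was -0.80 with paraoxon and -0.59 with mipafox, and that of MCM5 was -0.57 with paraoxon. For the brightest probes, the unadjusted 95% interval of the difference lay wholly within a 2-fold change for 43 of 45 genes with paraoxon. The exceptions were POLD2 and POLE. With mipafox it did so for 44 of 45, all but POLE. The share over all tested probes is not given, so neither count is a result about these genes.

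**Figure D1:**
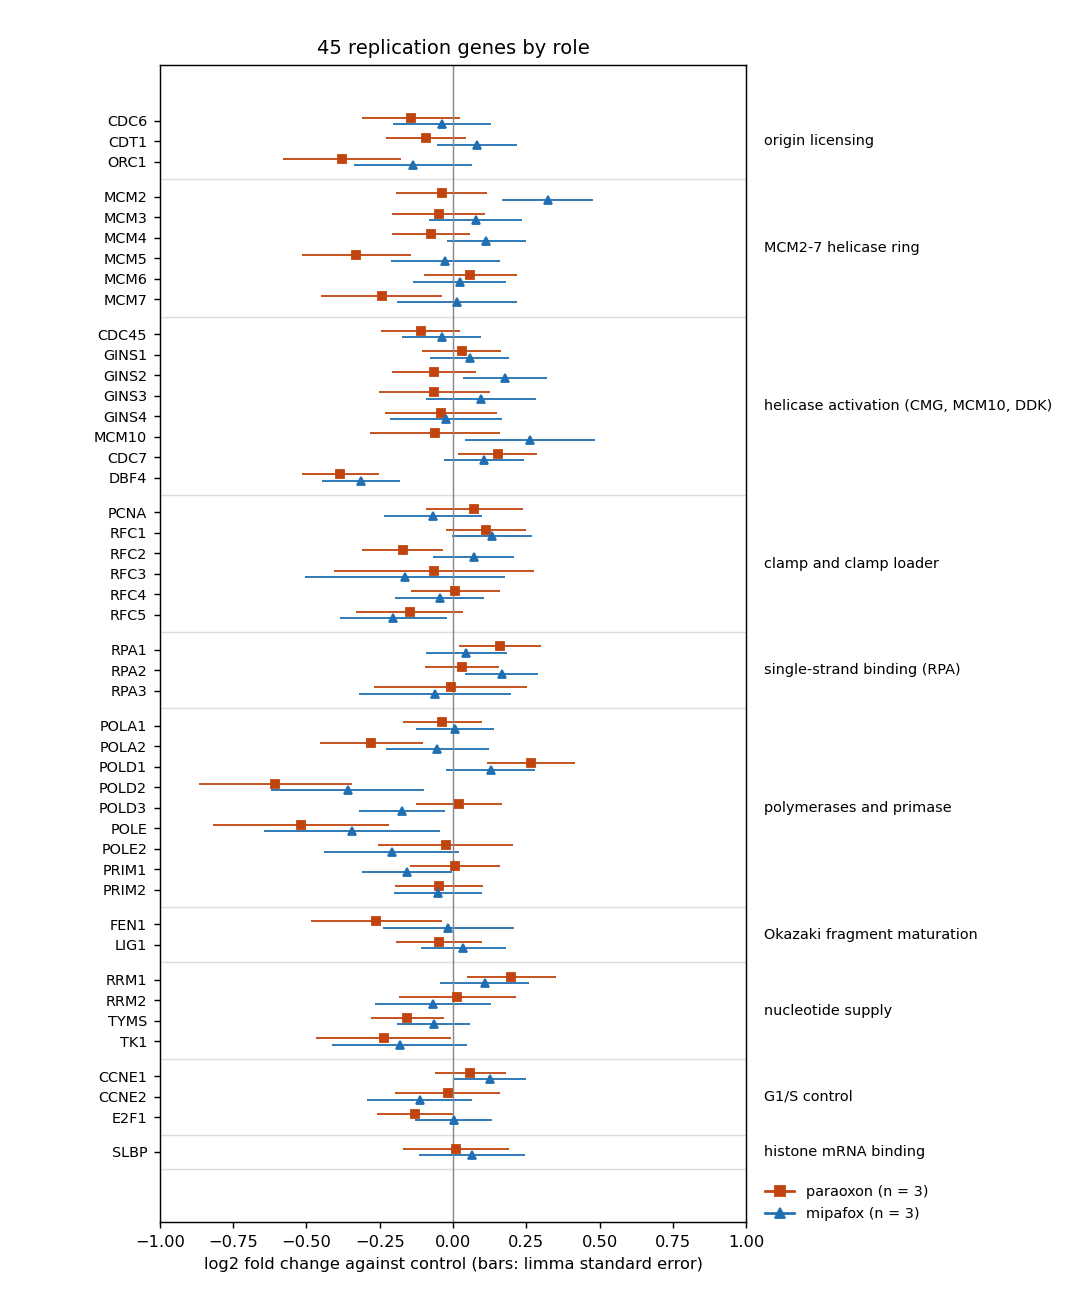
Log2 fold change of the brightest probe of each of the 45 replication genes against the 3 control arrays, by role. Squares are paraoxon, triangles are mipafox and bars are limma standard errors. The points lie between -0.61 and 0.32, and the lowest are POLD2 and POLE with paraoxon.

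Groups that do not overlap were counted as well. With paraoxon all 3 arrays were below all 3 controls for 10 of 45 genes (CDT1, ORC1, MCM5, MCM7, DBF4, RFC2, POLD2, POLE, TYMS and TK1), or 22.2% against 11.1% of all tested probes. They were above all controls for 2 genes (POLD1 and CCNE1), or 4.44% against 12.4%. With mipafox 3 genes were below all controls (DBF4, POLD2 and POLE), or 6.67% against 6.46%, and 2 were above them (MCM2 and RPA2), or 4.44% against 5.32%. The log2 fold changes of the 10 genes with paraoxon lay between -0.61 and -0.09, and none of the 10 had an adjusted p under 0.05 in limma.

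Origin licensing was represented by CDC6, CDT1 and ORC1, which recruit and load the helicase ring. All 3 had a negative log2 fold change with paraoxon, with a median of -0.15, and 2 of 3 with mipafox, with a median of -0.04. ORC1, the large ATP-binding subunit of the origin recognition complex, had the smallest p of the 3. Its signal was 0.21, 0.03 and 0.02 in the controls, 0.01, -0.15 and -0.73 with paraoxon and 0.10, -0.22 and -0.03 with mipafox, here and throughout in the order A, B, C. Paraoxon C stood apart at the low end, while paraoxon A lay next to the lowest controls. The log2 fold change was -0.38 ± 0.20 (SE) with paraoxon, -0.16 without paraoxon C, and -0.14 with mipafox. CDC6 was -0.15 and -0.04 and CDT1 was -0.09 and 0.08 on the same scale.

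The 6 genes of the helicase ring did not move together. Their median log2 fold change was -0.06 with paraoxon and 0.05 with mipafox. MCM2 had a signal of 3.87, 3.55 and 3.52 in the controls, 3.59, 3.45 and 3.79 with paraoxon and 3.92, 3.90 and 4.10 with mipafox. The mipafox arrays were above all others, although mipafox A exceeded control A by less than 0.1. The log2 fold change with mipafox was 0.32 ± 0.15 (SE), and paraoxon was below mipafox by -0.36 ± 0.15, with adjusted p-values of 0.76 and 1.00 in limma.

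MCM5 had a signal of 2.26, 1.69 and 1.70 in the controls, 1.54, 1.53 and 1.59 with paraoxon and 2.08, 1.72 and 1.76 with mipafox. The paraoxon arrays were all just below control B and C, and control A was high, and the log2 fold change of -0.33 ± 0.19 with paraoxon was -0.14 without control A and 0.02 with slide as a block. MCM7, the brightest probe of which also has a second probe described further on, had 6.01, 6.02 and 5.84 in the controls, 5.83, 5.53 and 5.78 with paraoxon and 6.32, 6.07 and 5.52 with mipafox. Its mipafox arrays spread over a wider range than the other treatments and enclosed all of them. Its log2 fold changes were -0.24 ± 0.21 and 0.01 ± 0.21. With slide as a block they became 0.28 and 0.36, the second being mipafox A against the controls.

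MCM3 had 4.35, 4.23 and 4.10 in the controls, 4.07, 4.05 and 4.42 with paraoxon and 4.45, 4.33 and 4.12 with mipafox. MCM4 had 1.71, 1.55 and 1.45 in the controls, 1.50, 1.56 and 1.42 with paraoxon and 1.58, 1.67 and 1.81 with mipafox. MCM6 had 3.73, 4.03 and 4.00 in the controls, 3.88, 4.23 and 3.82 with paraoxon and 3.85, 3.93 and 4.04 with mipafox. In these 3 genes the groups overlapped in both exposures.

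The helicase is switched on by CDC45, GINS1 to GINS4, MCM10 and the kinase pair CDC7 and DBF4. DBF4, the regulatory subunit that activates CDC7, had the smallest p of the 45 brightest probes in both exposures. Its signal was 1.04, 1.27 and 1.04 in the controls, 0.82, 0.78 and 0.60 with paraoxon and 0.79, 0.82 and 0.80 with mipafox. All 6 exposed arrays were below all 3 controls, and mipafox A, on the slide of the controls, was as low as mipafox B and C on the other slide. On the E1A control spots, however, mipafox A was also below the controls of its slide, at 8.11 against 9.29 to 9.55. The log2 fold change was -0.38 ± 0.13 (SE) with paraoxon and -0.31 ± 0.13 with mipafox, with adjusted p-values of 0.25 and 0.70 in limma. With slide as a block it was -0.40 and -0.32, and the second value is that of mipafox A alone against the controls. The catalytic subunit CDC7 was 0.15 and 0.11 on the same scale. A second DBF4 probe, which is described with the probe pairs, was higher with paraoxon.

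GINS2 had a signal of 2.49, 2.72 and 2.69 in the controls, 2.53, 2.74 and 2.45 with paraoxon and 2.72, 2.78 and 2.93 with mipafox. Its mipafox arrays overlapped the controls by control B, and the log2 fold change with mipafox was 0.18 ± 0.14. The other 5 genes of the group (CDC45, GINS1, GINS3, GINS4 and MCM10) lay between -0.11 and 0.03 with paraoxon and between -0.04 and 0.26 with mipafox.

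PCNA is the sliding clamp that holds polymerases on DNA, and RFC1 to RFC5 form the loader that places it. PCNA had a signal of 3.44, 3.74 and 3.70 in the controls, 3.59, 3.92 and 3.60 with paraoxon and 3.39, 3.51 and 3.79 with mipafox. The 3 groups overlapped, with log2 fold changes of 0.07 ± 0.17 and -0.07 ± 0.17. RFC2 had 1.22, 1.15 and 1.15 in the controls, 1.097, 1.12 and 0.79 with paraoxon and 1.31, 1.15 and 1.27 with mipafox. Its paraoxon arrays were below the controls, by less than 0.1 for paraoxon A and B, and the log2 fold change was -0.17 ± 0.14, and -0.07 without paraoxon C. RFC3 had the widest range over the 9 arrays of all 45 genes, 1.54, and no treatment stood apart: 0.62, 0.81 and 1.02 in the controls, 0.58, 1.07 and 0.61 with paraoxon and -0.07, 0.56 and 1.47 with mipafox.

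RPA1, RPA2 and RPA3 make up the complex that coats single-stranded DNA. RPA2 had a signal of 3.37, 3.31 and 3.31 in the controls, 3.23, 3.39 and 3.46 with paraoxon and 3.53, 3.43 and 3.53 with mipafox. The mipafox arrays were above the controls and the log2 fold change was 0.17 ± 0.12. RPA1 was 0.16 with paraoxon and 0.05 with mipafox, and RPA3 was -0.01 and -0.06.

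Among the brightest probes of the genes, those of 2 polymerase subunits gave the largest negative values with either compound. POLD2, an accessory subunit of polymerase delta, had a signal of 1.57, 1.44 and 1.45 in the controls, 1.12, 1.29 and 0.23 with paraoxon and 1.28, 0.86 and 1.24 with mipafox. All 6 exposed arrays were below the controls, and paraoxon C was far below the rest. The log2 fold change was -0.61 ± 0.26 with paraoxon and -0.36 ± 0.26 with mipafox, with adjusted p-values of 0.36 and 0.86 in limma. The first value was -0.28 without paraoxon C and -0.37 with slide as a block.

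POLE, the catalytic subunit of the leading-strand polymerase epsilon, had -1.56, -1.75 and -1.76 in the controls, -1.82, -1.78 and -3.02 with paraoxon and -2.04, -2.19 and -1.88 with mipafox. Again all 6 exposed arrays were below the controls, and again paraoxon C was the outlying value. The log2 fold change was -0.52 ± 0.30 with paraoxon, -0.11 without paraoxon C, and -0.35 ± 0.30 with mipafox. A second, dimmer POLE probe was 0.03 ± 0.16 with paraoxon and -0.17 ± 0.16 with mipafox, and its groups overlapped in both exposures, so the low values of POLE are those of 1 probe. POLD1, the catalytic subunit of polymerase delta, lay on the other side of the controls, with 2.08, 1.96 and 1.94 in the controls, 2.29, 2.24 and 2.25 with paraoxon and 2.31, 2.21 and 1.84 with mipafox. Its paraoxon arrays agreed within 0.05 and were all above the controls, at a log2 fold change of 0.27 ± 0.15. With slide as a block POLD1 was 0.55. The other polymerase and primase subunits (POLA1, POLA2, POLD3, POLE2, PRIM1 and PRIM2) lay between -0.28 and 0.02 with paraoxon and between -0.21 and 0.01 with mipafox.

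FEN1, the flap endonuclease, and LIG1, the ligase, finish Okazaki fragments. FEN1 had a signal of 0.75, 0.58 and 0.65 in the controls, 0.54, 0.74 and -0.08 with paraoxon and 0.60, 0.41 and 0.92 with mipafox. Paraoxon C was low once more, whereas paraoxon B was within the controls, and the log2 fold change was -0.26 ± 0.22, and -0.02 without paraoxon C. LIG1 was -0.05 with paraoxon and 0.04 with mipafox.

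Nucleotides for DNA synthesis are supplied by the 2 subunits of ribonucleotide reductase, RRM1 and RRM2, by thymidylate synthase (TYMS) and by thymidine kinase (TK1). RRM2, the subunit whose level is known to limit the enzyme, had a signal of -0.44, -0.02 and -0.08 in the controls, -0.02, -0.04 and -0.43 with paraoxon and -0.47, 0.07 and -0.35 with mipafox. Its groups overlapped and its log2 fold changes were 0.01 ± 0.20 and -0.07 ± 0.20. RRM1 had 3.74, 3.88 and 3.93 in the controls, 3.83, 4.27 and 4.04 with paraoxon and 3.97, 3.84 and 4.06 with mipafox, with 0.20 ± 0.15 and 0.11 ± 0.15. TYMS was -0.16 and -0.07, and TK1 was -0.24 and -0.18.

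Entry into S phase was represented by E2F1, an activating E2F factor, and by the 2 E-type cyclins. E2F1 had a signal of 0.28, 0.05 and 0.09 in the controls, 0.00, 0.12 and -0.09 with paraoxon and 0.21, 0.14 and 0.07 with mipafox, and its log2 fold changes were -0.13 ± 0.13 and 0.00 ± 0.13. CCNE1 had 2.20, 2.17 and 2.22 in the controls, 2.23, 2.24 and 2.29 with paraoxon and 2.43, 2.32 and 2.21 with mipafox. It had the narrowest range of the 45 genes over the 9 arrays, 0.26, and log2 fold changes of 0.06 ± 0.12 and 0.13 ± 0.12. CCNE2 had -3.45, -3.14 and -3.25 in the controls, -3.56, -3.20 and -3.12 with paraoxon and -3.55, -3.49 and -3.13 with mipafox, and its groups overlapped in both exposures.

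**Figure D2:**
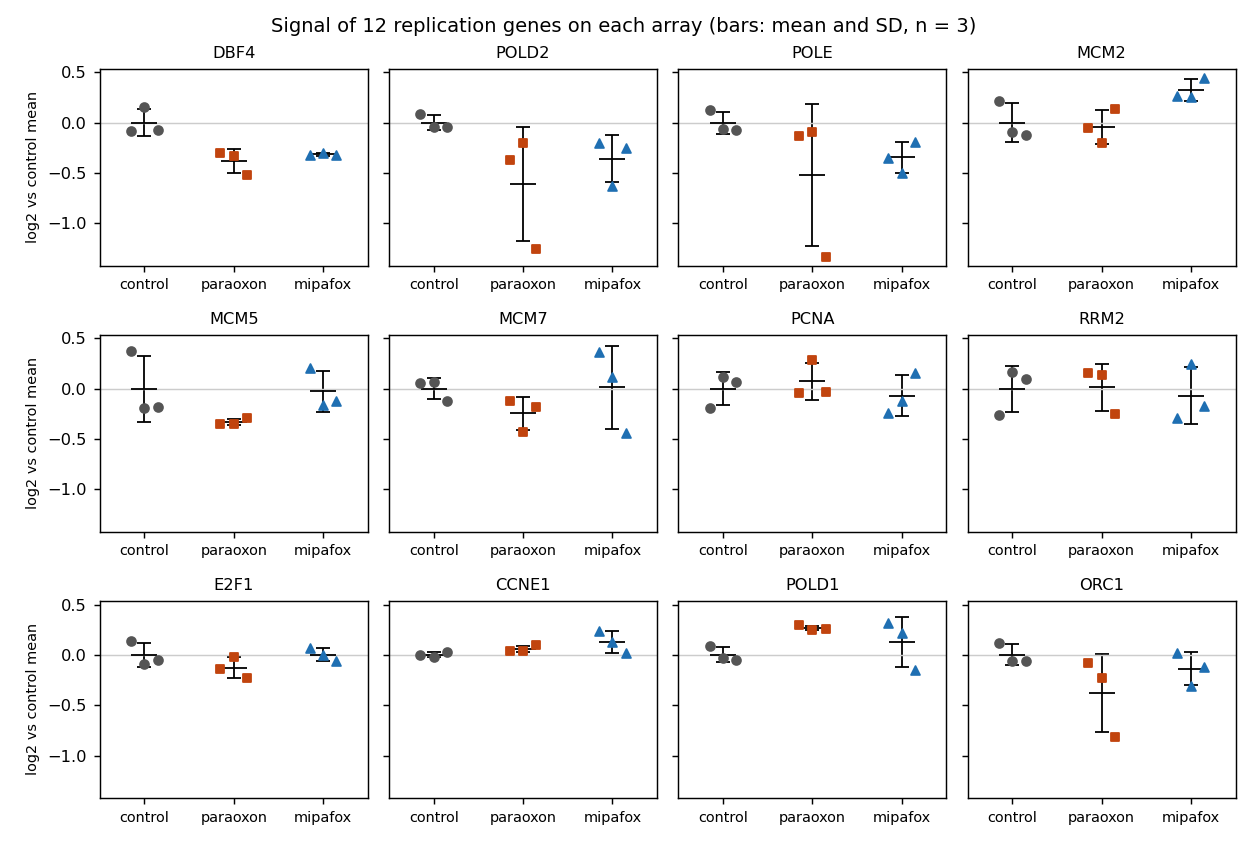
Signal of 12 replication genes on each array, as log2 relative to the mean of the 3 control arrays; points are arrays and bars are mean and SD (n = 3). DBF4, POLD2 and POLE lie below the controls on all 6 exposed arrays, and paraoxon C is the low point of POLD2, POLE and ORC1.

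SLBP encodes the protein that binds the stem-loop of histone mRNA. Its signal was 3.00, 3.32 and 3.40 in the controls, 3.25, 3.43 and 3.07 with paraoxon and 3.05, 3.32 and 3.54 with mipafox. No treatment stood apart, and the log2 fold changes were 0.01 ± 0.18 and 0.06 ± 0.18. Within each treatment, however, SLBP ran opposite to the histone genes.

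The histone genes themselves behaved otherwise. Of the 68 replication-dependent histone genes named on the array 65 were tested. Their median log2 fold change was -0.56 with paraoxon, with 54 genes below 0 and 11 above, against 48.1% of all tested probes below 0. With mipafox it was -0.45, with 53 below and 12 above, against 49.8%. Among the histone genes well above background on all arrays, HIST1H4E had the lowest value with paraoxon. It had a signal of 3.79, 3.31 and 2.87 in the controls, 1.77, 1.35 and 2.25 with paraoxon and 3.05, 1.97 and 1.20 with mipafox, and a log2 fold change of -1.53 ± 0.45 (SE, adjusted p = 0.18 in limma). HIST1H4G had the highest. It was 2.02 ± 0.44 (adjusted p = 0.10 in limma), from -5.89, -6.76 and -6.81 in the controls to -4.58, -5.19 and -3.64 with paraoxon, all low signals, and -4.96, -4.30 and -5.57 with mipafox. Single arrays weighed heavily in the list median, which with paraoxon was -0.17 without paraoxon B, -0.24 without control A, -0.92 without control C and -1.004 without paraoxon C. With mipafox it was 0.20 without mipafox C, -0.07 without control A, -0.80 without control C and -0.94 without mipafox A, and 0.05 with array weights. The list median changed sign when slide entered the fit as a block, to 0.71 with paraoxon and 0.44 with mipafox. That fit takes the slide difference from the mipafox arrays alone. Its mipafox value is mipafox A against the controls, and its paraoxon value also rests on mipafox A, the only exposed array of slide 1. The median of the replication genes under the same block was -0.02 and 0.08.

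The spread of the histone signal between arrays of one treatment made a direct comparison possible. Relative to the mean of the controls, the median of the histone genes was 0.66, -0.03 and -0.64 in the controls, -0.54, -1.43 and 0.17 with paraoxon and 0.44, -0.07 and -1.71 with mipafox. The median of the 45 replication genes on the same arrays was -0.02, 0.02 and -0.01, then -0.08, -0.01 and -0.10, then 0.08, 0.00 and -0.06. The histone median thus ranged over 2.37 on the log2 scale and the replication median over 0.18. Every array had a replication median within 0.1 of the control mean. On paraoxon B and mipafox C, the 2 arrays with the lowest histone signal, it was -0.01 and -0.06. The value of mipafox C was the lowest of its treatment and that of paraoxon B the highest. Paraoxon C, with histone signal above the control mean, had the lowest replication median of all.

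Over the 9 arrays the replication median correlated with the histone median at r = 0.33 (Spearman's rho = 0.20), and at 0.31 without mipafox C and paraoxon B, the 2 arrays farthest from the median. A change of 1 in the histone median went with 0.02 in the replication median. These are descriptions of 9 arrays that share slides and treatments. The sign was not stable: r was -0.51 after quantile normalization and -0.59 in the processed values of the authors, with slopes of -0.05 and -0.04. The median of all tested probes itself went up with the histone median under the 75th percentile scaling (r = 0.86), over a range of 0.15. Deviations from the treatment means gave r = 0.27 and the same slope of 0.02.

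Other lists were set beside this. A further 40 replication and S-phase genes, among them other ORC subunits, chromatin replication factors and S-phase kinases, had a range of 0.12 over the 9 arrays and a slope of 0.00 on the histone median. Of these 40 genes 0 passed an adjusted p under 0.05 in limma in either exposure. At an unadjusted p under 0.05 with paraoxon 2 of the 40 were lower, CDK2 (-0.45 ± 0.15) and RBL1 (-0.32 ± 0.12), and 1 was higher, against 6.02% and 7.31% of all probes, and with mipafox 0 passed. Of 7 genes that make or process histone mRNA, only LSM11, a part of the U7 particle that cuts it, had an unadjusted p under 0.05 with paraoxon (-0.79 ± 0.24, adjusted p = 0.19 in limma), and 0 had one with mipafox. Of 10 tested genes known for G1 arrest, 0 had one in either exposure, and their medians were 0.02 with paraoxon and -0.04 with mipafox. The median of the 16 mitosis genes had a range of 0.27 and went the opposite way to that of the histones, with r = -0.95 and a slope of -0.10. The single mitosis genes were less uniform, with a median r of -0.47. Of them 3 had r below -0.8, or 18.8% against 3.89% of all probes, and 1 had r above 0.8, or 6.25% against 10.4%. The 45 tested non-polyadenylated RNAs, which are small nucleolar, small nuclear and other RNAs that were not listed for any link to S phase, went with the histones, with r = 0.99 and a slope of 0.59. The 10 polyadenylated histone genes, which are made outside S phase as well, had r = 0.89 and a slope of 0.14. The part that poly(A) tails or the labelling of RNA had in the histone values was not tested.

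Single replication genes did run with or against the histone median, although their average did not. Across the 9 arrays r was above 0.8 for 3 of 45 genes (RPA3, MCM7 and MCM3), or 6.67%, against 10.4% of all tested probes, and below -0.8 for 4 (SLBP, PCNA, RFC3 and MCM6), or 8.89%, against 3.89%. The strongest were SLBP at -0.90, with a slope of -0.21, and RPA3 at 0.90, with a slope of 0.34. RPA3 had a signal of 5.37, 5.39 and 5.20 in the controls, 5.30, 5.00 and 5.63 with paraoxon and 5.68, 5.41 and 4.68 with mipafox. Without mipafox C and paraoxon B, r was -0.86 for SLBP and 0.66 for RPA3. Genes of one complex fell on both sides, MCM3 and MCM7 at 0.82 and 0.85 and MCM6 at -0.80.

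**Figure D3:**
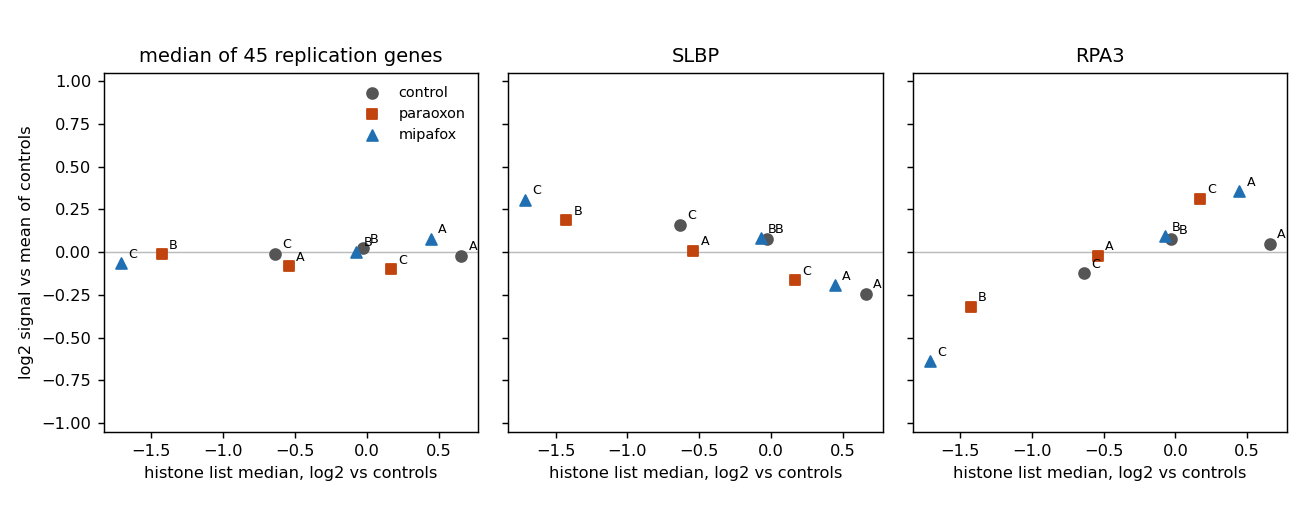
Each array placed by its histone list median (horizontal) and by the median of the 45 replication genes, by SLBP and by RPA3 (vertical), all as log2 relative to the mean of the 3 control arrays; letters are replicates. The replication median stays near 0 across the histone range, SLBP falls and RPA3 rises along it.

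Several genes have more than 1 probe, and the probes did not always agree. Of the 9 replication genes with at least 2 tested probes, 6 had probes with opposite signs of the log2 fold change with paraoxon and 3 with mipafox. Some of these values were smaller than their standard errors, as for PCNA with paraoxon (0.07 ± 0.17 and -0.06 ± 0.27). The share over all genes with several probes is not given, so neither count is a result about these 9 genes. The probes of 4 of them and of POLD2 are given as printed on the array, with hg19 positions from the files, because low values in the report rest on single 60-base sequences. For MCM5 the upstream probe is at chr22:35813789-35813848 and the downstream one at chr22:35819307-35820178, both on the plus strand, and the second spans more than its own length on the genome and so crosses an intron. For PCNA they are at chr20:5098164-5098223 and chr20:5095957-5096102 on the minus strand, and the second again crosses an intron. The upstream probe of MCM7 is at chr7:99697277-99697336 on the minus strand, that of DBF4 at chr7:87516653-87516712 on the plus strand, and the only POLD2 probe at chr7:44156765-44156824 on the minus strand.
MCM5 upstream: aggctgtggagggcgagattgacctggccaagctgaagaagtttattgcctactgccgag
MCM5 downstream: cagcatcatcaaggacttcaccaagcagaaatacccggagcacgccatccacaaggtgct
PCNA upstream: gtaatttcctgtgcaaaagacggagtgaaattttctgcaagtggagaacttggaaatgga
PCNA downstream: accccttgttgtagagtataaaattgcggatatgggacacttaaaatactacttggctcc
MCM7 upstream: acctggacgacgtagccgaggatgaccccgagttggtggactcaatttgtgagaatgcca
DBF4 upstream: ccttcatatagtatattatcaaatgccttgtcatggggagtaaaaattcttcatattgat
POLD2: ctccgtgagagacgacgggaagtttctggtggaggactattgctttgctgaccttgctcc

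The upstream MCM7 probe had a signal of 0.16, -0.19 and -0.06 in the controls, -0.57, -0.59 and -1.33 with paraoxon and -0.18, -0.86 and -0.83 with mipafox. It was below the controls on all 3 paraoxon arrays, with a log2 fold change of -0.80 ± 0.26 against -0.24 for the brighter, downstream probe of the gene, and of -0.59 against 0.01 with mipafox. The upstream MCM5 probe likewise gave -0.57 ± 0.23 with paraoxon, with 0.75, 0.42 and 0.38 in the controls and 0.15, 0.21 and -0.53 with paraoxon, against -0.33 downstream. DBF4 differed in sign, at -0.38 upstream and 0.38 ± 0.24 at the downstream probe at chr7:87538554-87538613, whose signal was -4.53, -4.00 and -4.04 in the controls and -3.97, -3.50 and -3.95 with paraoxon. Its lower signal on all 6 exposed arrays is thus a value of 1 probe.

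This contrast between probes was set out for all genes after the values had been seen. The difference between the most upstream and the most downstream probe, relative to the controls, was computed for the 9 replication genes and for 4041 genes in all with 2 tested probes at 200 to 500000 bases from each other. On paraoxon C its median was -0.46 for the replication genes and -0.33 for all genes, the lowest of the 9 arrays in both. For all genes it was 0.07, -0.04 and -0.03 in the controls, -0.14 and -0.17 on the other 2 paraoxon arrays, and -0.14, -0.21 and -0.20 with mipafox. For the replication genes it was -0.02 and 0.15 on the other 2 paraoxon arrays and -0.20, -0.29 and 0.05 with mipafox. POLE, at 1.33, and RPA1, at 0.47, went the other way on paraoxon C, and the low probe of POLE is the downstream one. The published methods state that all RNA samples met their limits of purity and integrity. The part of RNA quality in the low values on paraoxon C was not tested.

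The probes of E2F1, GINS2, PCNA and PRIM1 were printed 10 times on each array, which separates the error of a spot from that of an array. The SD between spots of one array was at most 0.09 for E2F1, 0.08 for GINS2, 0.07 for PRIM1 and 0.06 for PCNA. The SD between arrays of one treatment, each array being the mean of its spots, was larger, at 0.10, 0.13, 0.16 and 0.19 in the same order.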

How the data were processed

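The authors scanned one-colour Agilent arrays and deposited for each array the Feature Extraction output (version 10.5.1.1 in the submitters' processing notes and file headers), whose processed and mean signals are intensity values on a linear scale. The log2 values that the authors deposited in a further table served here only as an alternative. The methods name a 4 × 44 k format, whereas the file headers give design 028004 and 58717 spots that are not controls. For this report each array was scaled on log2 processed signal by its own 75th percentile. Outlier spots and controls were dropped before the remaining spots of each probe were averaged. The 29134 probes well above background (at least 0.5 of their spots) on all arrays of at least 1 treatment entered a limma fit (limma 3.58.1, R 4.3.3) of the 9 arrays with a mean for each treatment, and p-values were adjusted over all probes by Benjamini-Hochberg. No depth applies to arrays, and their number limits the precision. Intervals used the degrees of freedom of this fit.

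The replication genes and the other lists were chosen with earlier results of these data known. Values on every array are given by rule: the gene of each role with the smallest p, the 5 smallest p in each exposure, 12 fixed genes, genes not overlapping the controls in both exposures, and the histone genes with the largest and the smallest change with paraoxon. RPA3 and the second probes were added after their values were seen. The value of 1 gene among the further S-phase genes is not reported here. Histone genes are those named HIST1H to HIST4H. The fit was tested on simulated data. Alternatives covered normalization, background correction, the authors' values, dim probes, outlier spots, slide, replicate letter, the arrays in the fit, variance model, array weights, thresholds, all probes of a gene and each array left out. Promoters came from RefSeq (GRCh38.p14); exon annotation on hg19 was not used here. Figures were drawn with matplotlib 3.10.9.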

Additional observations from a re-analysis of the deposited data

How the results depend on the processing

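The count of replication genes called stayed at 0 in all 3 comparisons under every alternative that was run. The number of probes called over the whole array did not: with paraoxon it was 1 with slide as a block, 276 with only the 2 treatments, 671 with array weights and 638 at an unadjusted p under 0.05 with a log2 fold change beyond 1, and 0 to 276 with one array left out (276 without mipafox A, 77 without mipafox B, 1 without mipafox C). With mipafox it was 6 with slide as a block, 800 with array weights, 246 at the unadjusted p, and 0 to 76 with one array left out (76 without mipafox A). Between the compounds it was 74 at the unadjusted p. The cause was not tested.

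The median of the replication genes with paraoxon was between -0.100 (without control A) and -0.0419 with one array left out. With mipafox it was between -0.0209 and 0.0371 (without mipafox C). It was 0.0792 with slide as a block and on the arrays of one slide. The histone median with slide as a block was 0.71 with paraoxon and 0.44 with mipafox. It was 0.44 for mipafox A against the controls of its slide. For mipafox, the block and the single slide give the same estimate, mipafox A against the controls, and are not separate checks. The correlation of the replication with the histone median was -0.51 after quantile normalization and -0.59 in the authors' values, and 0.12 to 0.56 with one array left out. The letters did not pair the arrays (r of deviations from -0.60 to 0.57 over 9 pairs, 5 of them over 0.1). With the replicate letter as a block 0 replication genes were called, and the medians were -0.05 and -0.02.

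Of 22 replication genes named by rule, 17 of 44 log2 fold changes exceeded their standard error, and 15 of these kept their sign under every alternative. Part of the 22 were named for a small p or for not overlapping the controls in these same data. The share over all probes is not given, so neither count is a result about these genes. With slide as a block MCM5 was 0.0163 and MCM7 was 0.28 with paraoxon. Array weights alone took adjusted p-values below 0.05, in limma: 0.021 for DBF4 and 0.034 for POLD1 with paraoxon, and 0.027 for DBF4, 0.030 for MCM2 and 0.046 for POLD2 with mipafox. None of these changes exceeded 1 on the log2 scale. Several log2 fold changes with paraoxon were smaller in size without paraoxon C but kept their sign. They were then -0.28 for POLD2, -0.11 for POLE, -0.16 for ORC1, -0.02 for FEN1 and -0.07 for RFC2.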
